A study of Mus musculus with 13 samples.

Results

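The difference between the response of wild type fat and the response of CD1d-/- fat to α-galactosylceramide (αGalCer) was measured for each of 18818 genes. For each gene the change after αGalCer in CD1d-/- mice was subtracted from the change in wild type mice, and all genes named by exactly 1 symbol on the arrays were members, each through its probe set with the highest mean. RNA of epididymal white fat from male mice was hybridised to 13 Affymetrix gene arrays. Of these, 3 came from wild type C57/BL6 mice injected with the vehicle pyridine and 4 from wild type mice injected with αGalCer. A further 3 came from CD1d-/- mice (B6.129S6-Cd1d1/Cd1d2tm1spb/J) injected with vehicle and 3 from CD1d-/- mice injected with αGalCer. All mice ate a high-fat diet for 4 days from 6 weeks of age, received 100 ng αGalCer per g of body weight or vehicle into the peritoneum on days 0 and 2, and were killed on day 4, with 6.5 weeks given as their age. As its name states, the strain carries a targeted change of Cd1d1 and Cd1d2, which is present in every cell type. How the RNA of the mice was divided between arrays is not stated in the labels. The p-values therefore rest on the spread among these arrays, some of which may be technical.

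CD1d is a membrane protein, related to the classical MHC proteins, that displays lipids rather than peptides. Invariant natural killer T (NKT) cells recognise αGalCer only when CD1d presents it, and within hours they release interferon gamma, IL-4 and other cytokines that act on macrophages, NK cells and adipocytes. Mice without CD1d fail to select these cells in the thymus, so the comparison of genotypes separates responses that need CD1d from responses to the injection that do not.

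Levels are log2 values, changes and differences are on the log2 scale, and ± is the standard error of the limma model over all 13 arrays. A gene was called at a Benjamini-Hochberg adjusted p under 0.05 over all 18818 genes. Levels under 6 lie in the dim range of the arrays, where background compresses differences, so no fold is given against them. The targeted gene bore out the genotypes, since Cd1d1 lay between 9.08 and 10.86 on the 7 wild type arrays and between 2.64 and 4.03 on the 6 CD1d-/- arrays. The mean level of 27 genes of ciliated and ductal epithelium was 6.74, 5.60 and 6.84 in wild type and 7.57, 6.00 and 5.25 in CD1d-/- after vehicle, and 4.87 to 5.04 on all 7 αGalCer arrays. The mean level of 16 skeletal muscle genes was 8.21 and 6.62 on 2 CD1d-/- vehicle arrays and 8.51 on 1 CD1d-/- αGalCer array, against 4.98 to 5.82 on the other 10. The levels of these 2 lists bear on the results below, which are therefore also given without the arrays concerned where they differ. The mean level of 16 epididymis and testis genes lay between 3.84 and 4.66 on the 13 arrays. Whether other tissue was carried into the samples was not tested. The 3 arrays highest in ductal genes were wild type vehicle replicates 1 and 3 and CD1d-/- vehicle replicate 1. Without them wild type vehicle replicate 2 stood alone in its group, so sizes of effect are given for that setting. The ductal level was lower on every αGalCer array than on every vehicle array. Used as a covariate it overlaps with the αGalCer change, so calls lost with it cannot tell tissue from treatment.

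The response to αGalCer differed between the genotypes for 5309 genes (28.2% of those tested). The difference was positive, that is more upward or less downward in wild type, for 2611 genes (13.9%) and negative for 2698 (14.3%). In wild type, 7881 genes (41.9%) changed, 3733 upward (19.8%) and 4148 downward (22.0%). In CD1d-/- mice 0 genes were called by limma (0.0%), with 0.599 as the smallest adjusted p, and 1281 genes (6.81%) had an unadjusted p under 0.05. Array weights gave 322 calls in CD1d-/- mice, against 0 to 2 under all other settings tried. When the arrays were scaled to the ribosomal protein genes instead, the median difference over all genes moved from -0.03 to -0.61 and the split of called genes became 1065 positive to 11512 negative. The direction of small differences therefore holds only relative to the median of all genes.

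Of the 5309 genes, 5204 also changed in wild type in the direction of the difference, and these formed the CD1d-dependent class, with 2578 rises (13.7% of all genes) and 2626 falls (14.0%). The difference was at least 2-fold for 1252 of these rises and 1240 of these falls, against 6.69% of all genes called for a difference that far upward and 6.65% that far downward, and at least 4-fold for 339 rises and 164 falls. The change in CD1d-/- had the same sign as in wild type for 2509 of the class and the opposite sign for 2695. Among 4774 of the 5309 genes (89.9%), the 4 wild type αGalCer arrays lay beyond all 9 other arrays in the direction of the difference. Over all genes tested, the 4 arrays lay above the other 9 for 16.0% of genes and below them for 18.2%. For comparison, 9 of the 5309 genes also differed between the genotypes after vehicle, a contrast that called 21 genes (0.112%). Without the 2 arrays highest in muscle genes 4991 genes were called for the difference. Without the 3 arrays highest in ductal epithelium genes the median difference over all genes was 0.01.

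**Figure D1:**
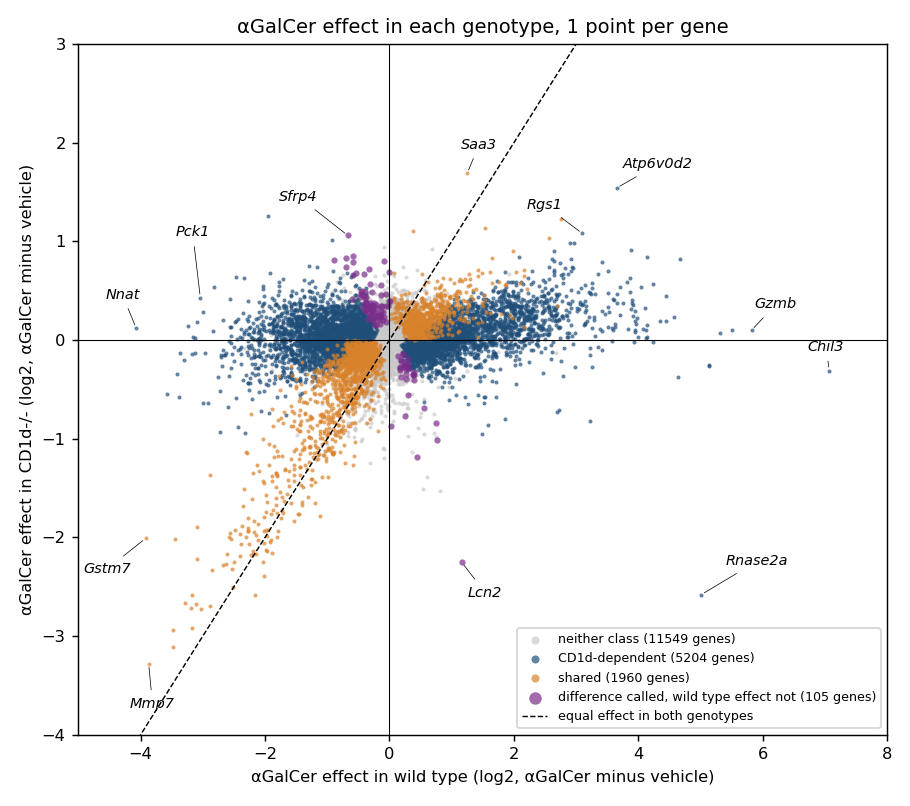
Change after αGalCer in wild type (horizontal axis, log2) against the change in CD1d-/- (vertical axis, log2) for 18818 genes, 1 point per gene, with the dashed line where both would be equal. The 5204 CD1d-dependent genes spread along the horizontal axis, while the 1960 shared genes reach down towards the dashed line, mostly on the side of falls.

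The steepest wild type rises had the smallest counterparts in CD1d-/- relative to their size. All 23 genes that rose by 4 or more on the log2 scale in wild type were called for the difference, and their median change in CD1d-/- was 0.10, or 2.33% of the wild type change. Of the genes that rose by 3 to 4, all 78 were called, with a median of 0.30 in CD1d-/-, and of those that rose by 2 to 3, 340 of 350 were called, with a median of 0.24. Falls behaved unevenly. Of 26 genes that fell by 3 to 4 in wild type, 13 were called for the difference and 13 were not, and the median change in CD1d-/- was -1.23. Over the 2808 genes that changed at least 2-fold in wild type (7.4% of all genes upward and 7.52% downward), the median change in CD1d-/- was 6.4% of the wild type change (25th percentile -3.59%, 75th percentile 17.5%), and 2439 of them (86.9%) were called for the difference.

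Most genes of T cells and of NK and cytotoxic cells were CD1d-dependent rises, and few genes of B and plasma cells were. Of 20 genes of NK and cytotoxic cells 18 had a called positive difference, with a median of 2.24 against -0.03 for all genes, as did 15 of 17 T cell genes with a median of 1.96. Of 17 B and plasma cell genes 5 did, with a median of 0.30, and scaling to ribosomal protein genes left 2 positive and 6 negative calls with a median of -0.28. Granzyme B (Gzmb), a protease of cytotoxic granules, read 4.51, 4.47 and 4.57 in wild type after vehicle and 10.67, 10.04, 10.23 and 10.42 after αGalCer. In CD1d-/- it read 4.98, 5.08 and 4.81 after vehicle and 5.24, 5.01 and 4.94 after αGalCer. The wild type groups lay far apart and the CD1d-/- groups overlapped. The difference was 5.72 ± 0.21 (adjusted p = 2.52e-08), measured against dim readings. Granzyme A (Gzma) rose by 4.57 ± 0.18 in wild type against a change of 0.23 ± 0.19 in CD1d-/-, and Cd3e, a chain of the T cell receptor complex, by 3.23 ± 0.16 against -0.15 ± 0.17.

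Of 16 genes of NKT cell identity and activation, many of them shared with other T and NK cells, 13 had a positive and 1 a negative called difference, with a median of 2.07. Slamf6, a receptor that takes part in NKT cell development, rose by 3.91 ± 0.11 in wild type, and its change in CD1d-/- was 0.24 ± 0.12. Il2rb, the IL-2 and IL-15 receptor chain of NKT and NK cells, rose by 3.76 ± 0.23 against 0.38 ± 0.24. The exception was Zbtb16, which encodes the NKT cell transcription factor PLZF. It read 10.85 to 11.39 on all vehicle arrays of both genotypes, 9.06 to 9.91 in wild type after αGalCer and 11.15 to 11.20 in CD1d-/- after αGalCer, so it fell in wild type with a difference of -1.68 ± 0.28 (adjusted p = 0.000624). After vehicle it read as high in CD1d-/- fat as in wild type fat. In whole tissue, more cells of a type and more RNA per cell cannot be told apart.

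The main cytokines of NKT cells, interferon gamma and IL-4, rose in wild type and were not called in CD1d-/-. Of 17 NKT and T cell cytokine genes 9 had a called positive difference (median 0.69), and scaling to ribosomal protein genes left 5 positive and 4 negative calls with a median of 0.11. Ifng, interferon gamma, read 5.03, 4.88 and 5.13 in wild type after vehicle and 8.75, 8.12, 7.87 and 7.99 after αGalCer. In CD1d-/- it read 4.78, 4.84 and 5.25, then 5.16, 5.22 and 5.06. Its difference was 2.98 ± 0.28 (adjusted p = 1.32e-05), with all 9 arrays other than wild type αGalCer in the dim range. Il4, the cytokine that drives alternative macrophage activation, rose from 3.69 to 3.85 after vehicle to 5.18 to 5.68 in wild type, and in CD1d-/- it read 3.63 to 3.91 and then 3.76 to 4.29. The difference was 1.43 ± 0.22 (adjusted p = 0.00038), with every array in the dim range. For Il13 the difference was 0.88 ± 0.33 and missed the threshold (adjusted p = 0.0625), with a 95% interval from 0.17 to 1.59. It was called when wild type αGalCer replicate 3 was left out (adjusted p = 0.0123) and with array weights (adjusted p = 0.0161).

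Genes known to respond to IL-4 rose in wild type, with median changes near 0 in CD1d-/-. On the IL-4, IL-13 and STAT6 axis 14 of 22 genes had a positive and 2 a negative called difference (median 1.21), and of 29 genes of alternatively activated (M2) macrophages 21 were positive and 1 negative (median 1.23). Scaling to ribosomal protein genes left 9 positive and 4 negative calls on the axis (median 0.62) and 14 positive and 3 negative among the M2 genes (median 0.65). Median changes in CD1d-/- were 0.02 on the axis and 0.10 among the M2 genes. For 8 of the 29 M2 genes the CD1d-/- αGalCer arrays lay above all CD1d-/- vehicle arrays, and for 2 below them. Over all 18818 genes these counts were 1466 and 1137. Chil3, a chitinase-like protein secreted by such macrophages, read 3.21, 4.36 and 4.49 in wild type after vehicle and 10.86, 11.37, 11.01 and 11.11 after αGalCer. In CD1d-/- it read 4.61, 3.65 and 3.43 after vehicle and 3.54, 4.14 and 3.06 after αGalCer. All 9 arrays other than wild type αGalCer thus lay in the dim range, and the difference was 7.38 ± 0.51 (adjusted p = 3.4e-06). Arginase 1 (Arg1), which competes with nitric oxide synthase for arginine, had a difference of 5.39 ± 0.65, and Pdcd1lg2, the checkpoint ligand PD-L2, one of 5.41 ± 0.22. Il4ra, the receptor chain that binds IL-4, rose by 2.22 ± 0.22 in wild type against 0.01 ± 0.23 in CD1d-/-. Retnla, an M2 marker already high in all groups, read 10.85 to 11.53 after vehicle, 11.67 to 11.92 in wild type after αGalCer and 11.16 to 11.34 in CD1d-/- after αGalCer. Its difference of 0.94 ± 0.18 (adjusted p = 0.00164) lost the call when the arrays were scaled to ribosomal protein genes (adjusted p = 0.227). Stat6 itself differed by 0.10 ± 0.10, with an interval from -0.11 to 0.32, and by -0.48 under that scaling (adjusted p = 0.00632).

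Genes of classically activated (M1) macrophages and of the interferon gamma response rose as well. Of 24 M1 genes 16 had a called positive difference and 0 a negative one (median 2.06), and of 23 interferon gamma response genes 22 were positive (median 2.21, median change in CD1d-/- 0.11). Cxcl10, a chemokine that attracts T cells and is induced by interferon gamma, read 6.34, 7.03 and 6.43 in wild type after vehicle and 11.12, 10.74, 10.37 and 10.70 after αGalCer. In CD1d-/- it read 6.44, 6.94 and 6.97 and then 6.86, 6.85 and 6.93. The CD1d-/- αGalCer arrays lay inside the range of their vehicle arrays, and the difference was 4.03 ± 0.29 (16.4-fold, adjusted p = 3.49e-06). Nos2, inducible nitric oxide synthase, rose by 2.23 ± 0.28 against 0.06 ± 0.30, and Ciita, the master regulator of MHC class II genes, by 2.45 ± 0.22 against 0.12 ± 0.24. Of the 8 MHC class II genes, 7 had a called positive difference (median 1.14), H2-DMa the clearest with 2.41 ± 0.17 (adjusted p = 3.4e-06). Under ribosomal scaling 4 of the 8 were called, all positive, with a median of 0.56. Genes of both macrophage states thus stood in the CD1d-dependent class.

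Short stretches of promoter sequence are shown for 4 of these rises, because they carry a motif known from genes that respond to IL-4 or to interferons. RefSeq promoters (GRCm38.p6) were searched on both strands for 2 motifs, and matches of both may overlap. They were the STAT6 site (TTC and GAA with 4 bases between) and the interferon-stimulated element ISRE (GAAA and GAAA with 2 bases between). The stretches shown come from the 250 bases before each gene start. Each sequence runs 5′ to 3′ on the strand of its gene, with the motif in capitals. Pdcd1lg2 and Retnla hold the STAT6 site, 82 and 145 bases before the gene start. Cxcl10 and Ctss, the lysosomal protease cathepsin S, hold an ISRE, 213 and 21 bases before it.
Pdcd1lg2, chr19:29410807-29410876, plus strand: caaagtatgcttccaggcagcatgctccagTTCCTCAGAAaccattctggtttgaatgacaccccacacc
Retnla, chr16:48842434-48842503, plus strand: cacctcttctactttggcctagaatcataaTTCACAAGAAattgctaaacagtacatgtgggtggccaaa
Cxcl10, chr5:92349063-92349132, minus strand: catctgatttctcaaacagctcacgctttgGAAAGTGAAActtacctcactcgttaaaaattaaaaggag
Ctss, chr3:95526735-95526785, plus strand: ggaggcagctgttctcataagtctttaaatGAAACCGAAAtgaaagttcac

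A promoter was held for 14740 of the 18818 genes, and of these 7.35% held a STAT6 site and 3.91% an ISRE. These and the following shares count matches in the whole promoter sequence, which also takes in bases just after the gene start. Among CD1d-dependent rises of at least 2-fold with a promoter (983 of 1252) the shares were 9.16% and 7.93%. Among CD1d-dependent falls of at least 2-fold (931 of 1240) they were 6.12% and 3.22%, and among the shared genes (1528 of 1960) 6.81% and 3.99%. The ISRE share was thus highest among the CD1d-dependent rises, and 9 of 17 interferon gamma response promoters held one, 11 of 18 type I interferon response promoters and 2 of 18 promoters of the IL-4, IL-13 and STAT6 axis did, and 0 of 18 M2 promoters. The STAT6 site occurred in 4 of 18 M2 promoters and 3 of 18 promoters of the axis, against 5 of 18 in the type I interferon list and 2 of 17 in the interferon gamma list. These shares describe letters in a window and were not tested.

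**Figure D2:**
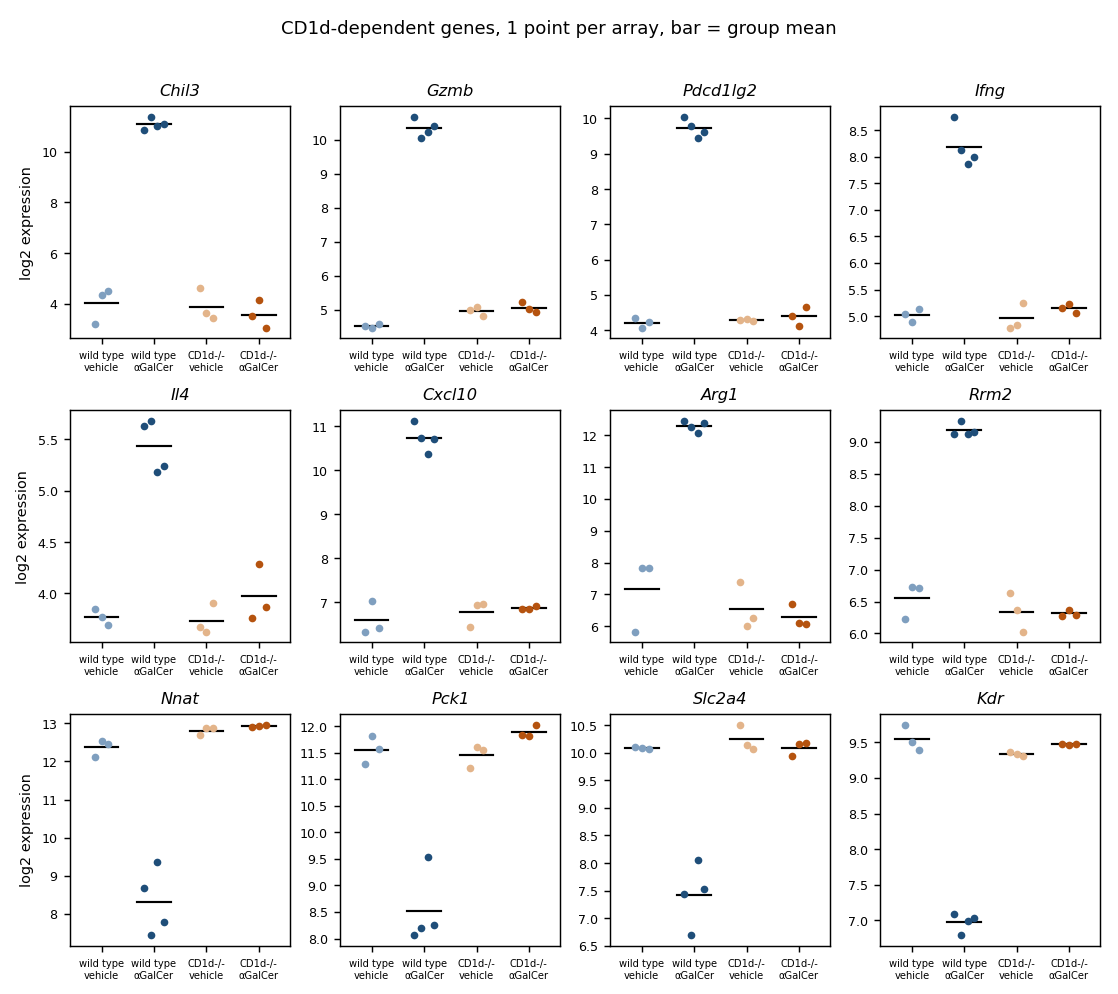
Level (log2) of 12 genes on each of the 13 arrays, by group, 1 point per array with bars at the group means. The 4 wild type αGalCer arrays stand above (Chil3 to Rrm2) or below (Nnat to Kdr) the other 9. Both CD1d-/- groups lie near the wild type vehicle arrays, but above all of them for Gzmb and, after αGalCer, for Pck1.

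Proliferation genes formed the most uniform list of rises. All 33 measured cell cycle genes had a called positive difference, with a median of 2.17, a median change of 2.18 in wild type and 0.09 in CD1d-/-. Scaling to ribosomal protein genes left 30 of the 33 called, all positive. Rrm2, the ribonucleotide reductase subunit made in S phase, read 6.22, 6.72 and 6.71 in wild type after vehicle, 9.13 to 9.33 after αGalCer, 6.03 to 6.63 in CD1d-/- after vehicle and 6.28 to 6.37 after αGalCer. Its difference was 2.66 ± 0.22 (6.31-fold, adjusted p = 7.51e-06). Bub1, a kinase of the spindle checkpoint, rose by 2.94 ± 0.37 in wild type against 0.40 ± 0.39.

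The highest-ranking differences also included genes outside these lists. Mmp13, a collagenase, differed by 5.25 ± 0.32, Tarm1, an activating receptor of myeloid cells, by 5.40 ± 0.27, and Ch25h, the enzyme that makes 25-hydroxycholesterol, by 4.16 ± 0.62. Rnase2a, a ribonuclease of the eosinophil family, had a difference of 7.59 ± 0.68, which it reached from both sides. It read 7.02, 8.12 and 6.73 in wild type after vehicle and 11.98 to 12.43 after αGalCer, and 7.66, 9.96 and 7.82 in CD1d-/- after vehicle and 5.70 to 6.01 after αGalCer. The CD1d-/- groups did not overlap either, but in the direction opposite to wild type, with a change of -2.58 ± 0.50 that limma did not call (unadjusted p = 0.000204, adjusted p = 0.72). Genes of this family are close copies of each other, so the signal may come from more than 1 of them. It was the 1 called positive difference among 9 eosinophil genes, and Alox15 was the 1 called negative one, at -1.29 ± 0.44 (adjusted p = 0.043), a call lost under 13 of 26 alternatives.

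The CD1d-dependent falls included genes of adipocytes, blood vessels and connective tissue. All 24 adipocyte genes and all 21 genes of fatty acid and triglyceride synthesis had a called negative difference, with medians of -1.29 and -1.39, and in CD1d-/- their median changes were 0.00 and -0.03. Under ribosomal scaling all members of both lists remained called and negative. Pck1, which makes the glycerol backbone of triglycerides in fat, read 11.28, 11.81 and 11.57 in wild type after vehicle and 8.06, 8.19, 9.54 and 8.26 after αGalCer. The CD1d-/- arrays read 11.22, 11.61 and 11.56 and then 11.84, 11.82 and 12.03. All CD1d-/- αGalCer arrays were above their vehicle arrays, though this change of 0.43 ± 0.30 was not called, and the difference was -3.47 ± 0.42 (11.1-fold, adjusted p = 6.36e-05). Nnat, a small membrane protein of the endoplasmic reticulum, differed by -4.19 ± 0.50, from 12.13 to 12.97 on the other 9 arrays to 7.43 to 9.36 in wild type after αGalCer. Adipoq, which encodes adiponectin, fell by 1.5 ± 0.24 in wild type against a change of 0.00 ± 0.25, and Lep, which encodes leptin, fell by 1.83 ± 0.22 against 0.02 ± 0.24.

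Of 18 genes of insulin signalling and glucose uptake 11 had a negative and 3 a positive called difference, and under ribosomal scaling 14 and 2. Slc2a4, the insulin-regulated glucose transporter GLUT4, read 10.06 to 10.10 in wild type after vehicle, 7.43, 6.69, 8.05 and 7.53 after αGalCer, and 9.94 to 10.51 on the 6 CD1d-/- arrays, a difference of -2.50 ± 0.34 (5.67-fold, adjusted p = 0.00014). Slc2a1, the constitutive transporter GLUT1, and Ptpn1, a phosphatase that dampens the insulin receptor, moved the other way, with differences of 2.14 ± 0.37 and 1.49 ± 0.16. Akt1, the third exception, differed by 0.57 ± 0.12 (adjusted p = 0.00288), and by -0.01 under ribosomal scaling.

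Of 23 endothelial genes 21 had a called negative difference (median -1.5, median change in CD1d-/- 0.10). Kdr, the VEGF receptor of endothelium, read 9.75, 9.50 and 9.39 in wild type after vehicle and 7.09, 6.79, 6.99 and 7.03 after αGalCer, and 9.31 to 9.48 on all 6 CD1d-/- arrays. Its difference was -2.71 ± 0.14 (6.53-fold, adjusted p = 3.12e-07). Lyve1, shared by lymphatic vessels and some macrophages, was the 1 member with a positive difference, 1.22 ± 0.24, which lost the call under ribosomal scaling. Of 19 fibroblast and preadipocyte genes 14 were negative and 1, Icam1, was positive. Of 33 extracellular matrix genes 13 were negative and 8 positive, and under ribosomal scaling 22 were negative and 4 positive, so the split of this list depended on the scaling (median -0.36, then -0.94). Elastin (Eln) differed by -2.17 ± 0.27 and Timp1, an inhibitor of matrix proteases, by 3.51 ± 0.62. Of 15 clock genes 9 were negative and 3 positive, with Per3 at -2.40 ± 0.21 and Nfil3, which represses the same promoters that Hlf activates, at 2.49 ± 0.31.

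**Figure D3:**
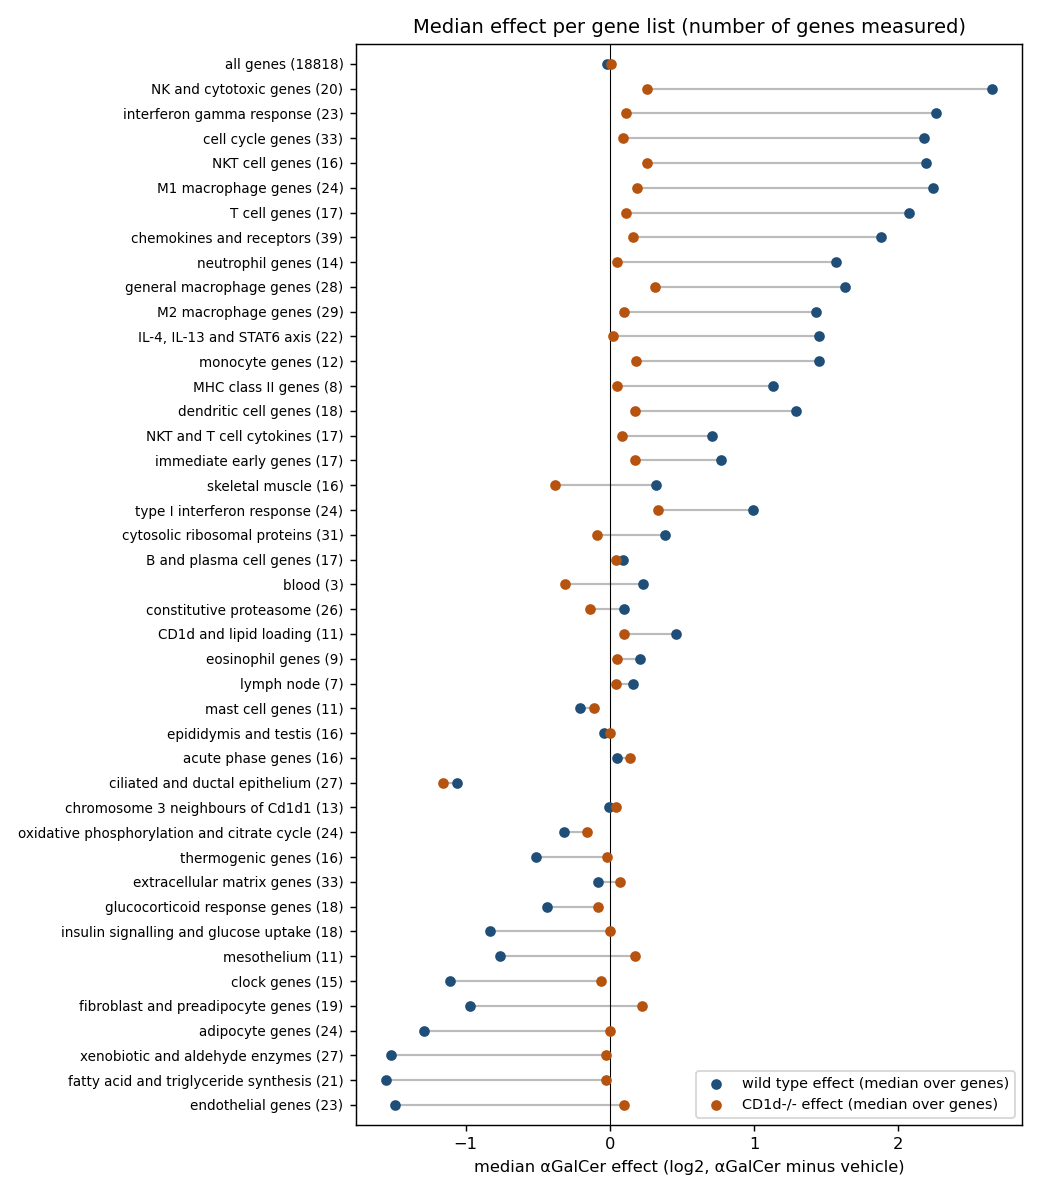
Median change after αGalCer (log2) in wild type and in CD1d-/- for 42 gene lists and for all genes, 1 pair of points per list. In CD1d-/- the ciliated and ductal epithelium list lies at -1.16 and the other medians between -0.38 and 0.33, while in wild type they spread widely; scaling to ribosomal protein genes turns the median difference of the type I interferon, ribosomal, proteasome, B cell, CD1d loading, eosinophil, lymph node and blood lists negative.

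Ribosomal protein genes showed a small, broad difference: 20 of 31 had a called positive difference, with a median of 0.47 that became -0.11 when the arrays were scaled to these same genes. The 26 constitutive proteasome genes had 7 positive calls and a median of 0.25, which became 10 negative calls and -0.34 under that scaling. These are levels relative to the other genes on the array, and the files hold no measure of total RNA per cell.

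Partial dependence was looked for among the CD1d-dependent rises, where CD1d-/- arrays moved in the same direction. Atp6v0d2, a subunit of the lysosomal proton pump of macrophages and osteoclasts, read 5.89, 7.53 and 6.99 in wild type after vehicle and 9.92, 10.89, 10.78 and 10.21 after αGalCer. The CD1d-/- arrays read 5.55, 6.66 and 5.93 and then 8.12, 7.43 and 7.20, so the groups were apart in both genotypes. The change was 3.65 ± 0.39 in wild type and 1.54 ± 0.41 in CD1d-/- (42.1% of the former, adjusted p = 0.72). The difference was 2.11 ± 0.57 (adjusted p = 0.0131). It was 1.64 without the 3 arrays highest in ductal epithelium genes, which left wild type vehicle replicate 2 alone in its group. Rgs1, a regulator of chemokine receptor signalling, changed by 3.10 ± 0.29 and 1.08 ± 0.31, and Ctss by 2.95 ± 0.22 and 0.73 ± 0.24. For both, the CD1d-/- αGalCer arrays lay above all CD1d-/- vehicle arrays. Across the class 0 CD1d-/- changes were called, so these values describe 3 genes and no class of partial responses.

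The same small upward shift in CD1d-/- ran through the macrophage list, and it was not particular to that list. In CD1d-/- 23 of 24 M1 genes, 21 of 23 interferon gamma response genes and 18 of 23 endothelial genes also lay above 0. Other lists went the other way, with 28 of 31 ribosomal protein genes and 23 of 24 respiration genes below 0. Of 28 general macrophage genes 20 had a positive and 1 a negative called difference (median 1.33; under ribosomal scaling 17, 3 and 0.75), yet 27 of the 28 were above 0 in CD1d-/-, against 54.1% of all genes, with a median of 0.31. For 15 of the 28 the CD1d-/- αGalCer arrays lay above all vehicle arrays of that genotype, against 7.79% of all genes. The mean level of the list was 9.08, 9.16 and 9.14 in CD1d-/- after vehicle and 9.70, 9.38 and 9.27 after αGalCer, and in wild type 8.68, 9.35 and 9.34 and then 10.61 to 10.76. The wild type vehicle arrays alone spanned more than the CD1d-/- shift. With the ductal epithelium level as a covariate the median in CD1d-/- was 0.21, and without the 3 arrays highest in it 0.31. Adgre1, which encodes the macrophage marker F4/80, belonged to the shared class: it rose by 1.39 ± 0.28 in wild type, its change in CD1d-/- was 0.52 ± 0.30, and the difference of 0.87 ± 0.41 was not called (adjusted p = 0.143, interval -0.01 to 1.76). Its average change over both genotypes, 0.96, lost the call with the ductal covariate (adjusted p = 0.146).

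Type I interferon response genes were divided between the classes. Of 24 genes 10 had a called positive difference, and 10 were shared rises, called for the average of both genotypes and not for the difference. Over all genes the shares were 13.9% and 3.67%. The median difference was 0.54 and became -0.05 under ribosomal scaling, with 6 positive and 1 negative call and 6 shared rises. In CD1d-/- 22 of 24 were above 0, against 54.1% of all genes, with a median of 0.33. For 10 the αGalCer arrays of that genotype lay above all its vehicle arrays, against 7.79% of all genes. With the ductal covariate the median in CD1d-/- was 0.02 and the list held 1 shared rise. Without the 3 arrays highest in ductal epithelium genes its median difference was 0.48 and its median change in CD1d-/- 0.2. Zbp1, a sensor of foreign nucleic acid, differed by 2.85 ± 0.36 and Oas3, an antiviral synthetase, by 2.24 ± 0.39, and neither is among the shared genes.

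The shared class, called for the average change and not for the difference, with the same sign in both genotypes, held 1960 genes (10.4% of those tested, where the average called 33.0%), 690 rises and 1270 falls. The class can hold genes with like responses and genes whose difference the arrays could not resolve. The interval of the difference lay within 2-fold either way for 1281 of them. That bound, 1 on the log2 scale, is wider than the median changes that follow. A change of that median size in wild type alone could also pass it, so the 1281 genes are not shown to respond alike. The median change of its rises was 0.51 in wild type and 0.21 in CD1d-/-, and of its falls -0.59 and -0.28. An average change of at least 2-fold was reached by 24 rises and 223 falls, and for 1 of these genes the interval lay within 2-fold.

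Among shared rises, Saa3, a serum amyloid protein made in inflamed fat, had groups apart in both genotypes. It read 7.83, 7.85 and 8.23 in CD1d-/- after vehicle and 10.07, 9.36 and 9.55 after αGalCer, a change of 1.69 ± 0.44 (unadjusted p = 0.00224, adjusted p = 0.72). In wild type it read 8.55, 10.45 and 10.65 and then 10.94, 10.86, 10.98 and 11.77, a rise of 1.25 ± 0.41. The difference of -0.44 ± 0.60 had an interval from -1.75 to 0.88. Gpnmb, a glycoprotein of lipid-laden macrophages, rose by 2.75 ± 0.40 in wild type and read 8.31, 8.14 and 7.85, then 10.35, 8.97 and 8.67 in CD1d-/-, a change of 1.23 ± 0.43. Its difference of 1.52 ± 0.59 was not called (adjusted p = 0.0752), and its average change of 1.99 (adjusted p = 0.000209) was called under all 26 alternatives run on it. Clec4d, a C-type lectin receptor of myeloid cells, changed by 1.53 ± 0.52 and 1.14 ± 0.55. The average changes of Saa3 and Clec4d were no longer called with the ductal covariate.

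The shared falls were led by genes of ciliated and ductal epithelium. Of the 27 genes of that list 21 were shared falls, against 6.75% of all genes, and 0 had a called difference. Their median changes were -1.06 in wild type and -1.16 in CD1d-/-. Mmp7, a protease of ductal epithelium, read 9.09, 6.92 and 9.07 in wild type after vehicle and 4.28 to 4.68 after αGalCer, and 10.22, 7.99 and 5.73 in CD1d-/- after vehicle and 4.49 to 4.86 after αGalCer. Dcdc2a, a protein of cilia, read 8.07, 5.81 and 7.72, then 3.67 to 3.77, and 8.54, 6.63 and 4.79, then 3.46 to 3.89. Both genes were low on every αGalCer array and ranged over more than 2 log2 units within each vehicle group. Mmp7 fell by 3.87 ± 0.79 in wild type (adjusted p = 0.00146), while its CD1d-/- change of -3.28 ± 0.85 was not called (adjusted p = 0.72). Sntn, a protein of the cilium tip, and Dao, a D-amino acid oxidase, showed the same array pattern. With the level of this list as a covariate the shared class held 310 genes, 158 rises and 152 falls. That level was lower on every αGalCer array than on every vehicle array, so the covariate cannot be told apart from the αGalCer change. The part of such tissue in the shared falls was not tested.

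Of 24 genes of oxidative phosphorylation and the citrate cycle 15 fell and 1 rose in wild type, and 0 were called in CD1d-/-. By class 13 were called as shared falls through the average of both genotypes, against 6.75% of all genes. A negative difference was called for 5 and a positive one for 1, and the intervals of 21 lay within 2-fold. Median changes were -0.32 in wild type and -0.16 in CD1d-/-, where 23 of 24 lay below 0, against 45.9% of all genes. The mean level of the list in CD1d-/- was 10.53, 10.35 and 10.28 after vehicle and 10.15, 10.21 and 10.34 after αGalCer, so the groups overlapped. With the ductal covariate 0 of the 24 were shared falls. Under ribosomal scaling 23 of 24 had a called negative difference, and Cox5a, the positive exception, turned from 0.57 to -0.02. Idh3a, a subunit of isocitrate dehydrogenase, was the clearest CD1d-dependent member, with a difference of -1.45 ± 0.14 (adjusted p = 1.75e-05).

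**Figure D4:**
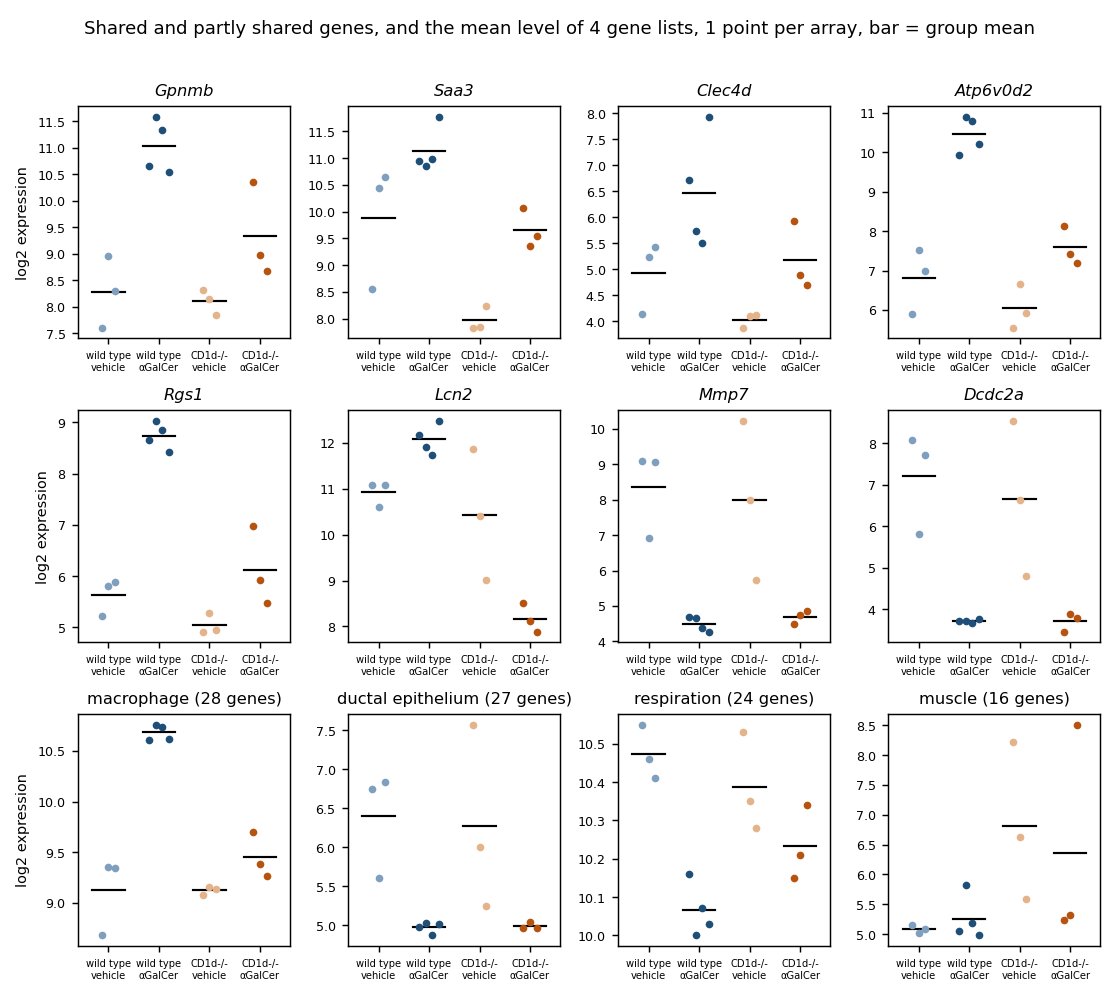
Level (log2) on each of the 13 arrays, by group, of 8 genes with shared, partial or opposite changes and mean level of 4 gene lists, 1 point per array with bars at the group means. The epithelial genes Mmp7 and Dcdc2a and their list are low on all 7 αGalCer arrays and scattered on the vehicle arrays, while the macrophage list separates wild type αGalCer arrays from all others.

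A further 105 genes were called for the difference without a call in wild type, 33 positive and 72 negative. Lcn2, an iron-binding protein released by neutrophils and inflamed tissue, read 11.09, 10.60 and 11.08 in wild type after vehicle and 12.18, 11.92, 11.74 and 12.48 after αGalCer. The CD1d-/- arrays read 11.86, 10.40 and 9.02 and then 8.52, 8.11 and 7.89. The groups were apart in both genotypes, in opposite directions, and neither change was called alone (1.16 ± 0.47 and -2.25 ± 0.50, adjusted p = 0.0671 and 0.72). The difference was 3.41 ± 0.69 (10.6-fold, adjusted p = 0.00228). The CD1d-/- vehicle arrays fell in the same order for Lcn2 as for the ductal epithelium list, whose part in this result was not tested. Hpca, a neuronal calcium sensor, had a difference of 1.64 ± 0.37 (adjusted p = 0.00485) that started from unequal vehicle groups, which read 5.74 to 6.26 in wild type and 7.31 to 8.62 in CD1d-/-. After αGalCer the genotypes overlapped, at 6.18 to 6.73 and 6.55 to 6.86. Among the negative differences, Adamts16, a matrix protease, changed by -0.70 ± 0.27 in wild type and 0.83 ± 0.29 in CD1d-/-, a difference of -1.54 ± 0.40 (adjusted p = 0.0105). The count of this group depended on single arrays: it was 52 without CD1d-/- vehicle replicate 1, 62 without CD1d-/- αGalCer replicate 2 and 200 without CD1d-/- vehicle replicate 3.

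The precision of the arrays set how much CD1d independence could be shown. The median half-width of the 95% interval of the difference was 0.38. For 13003 genes (69.1%) the whole interval lay within 2-fold either way, and for 7693 (40.9%) within 1.5-fold. The 13003 include genes called for the difference and genes not called in wild type. They are therefore no count of CD1d-independent changes. Fitting only genes with a group mean of at least 6 left 6399 intervals within 2-fold, so many of the 13003 belong to dim genes. There background compresses differences, and a narrow interval says little about CD1d independence. For 1796 genes (9.54%) the difference was neither called nor held within 2-fold. The change in CD1d-/- alone lay within 2-fold for 17675 genes (93.9%). Ucp1, the uncoupling protein of brown fat, read 3.45 to 4.60 on all 13 arrays, in the dim range. Its difference of 0.28 ± 0.26 had an interval from -0.28 to 0.84, with -0.30 as the difference under ribosomal scaling. Over genes, the wild type and CD1d-/- changes had a Pearson r of 0.34, given as a description since genes are not independent and share arrays. The SD of the changes over genes was 0.78 in wild type and 0.26 in CD1d-/-.

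**Figure D5:**
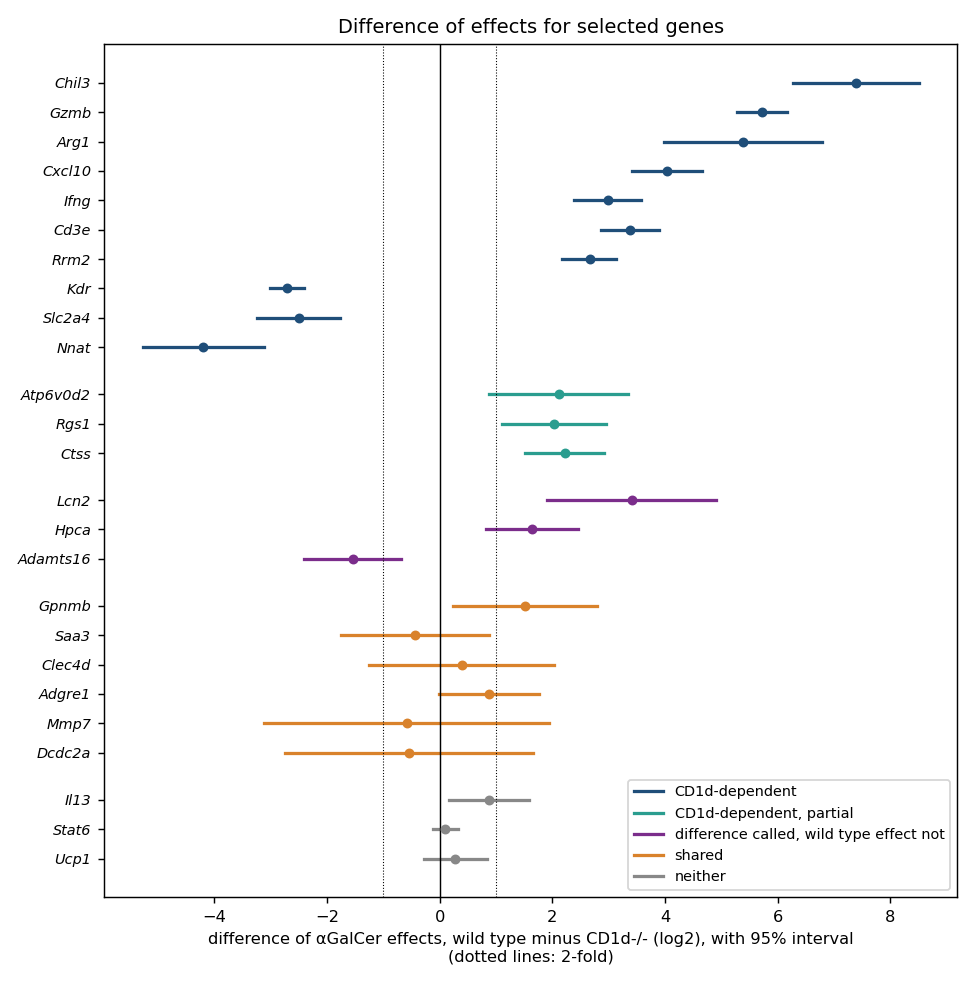
Difference of the αGalCer change between wild type and CD1d-/- (log2) with its 95% interval from the limma model, 1 line per gene, grouped by class, with dotted lines at 2-fold either way. The 10 genes plotted first, all CD1d-dependent, lie wholly beyond the dotted lines, while the 6 shared genes plotted each reach past a dotted line on at least 1 side, as Mmp7 does from -3.11 to 1.94.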

How the data were processed

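Epididymal fat RNA of 13 mouse samples was measured on Affymetrix arrays. The authors deposited log2 values per probe set, made with RMA per the submitters' processing notes. For its version and the build, neither is given in the sources used here. Detection calls and scan dates were not used here, and precision is limited by having 13 arrays.

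Of 35556 probe sets, 21218 had 1 symbol, 1881 several and 12457 none. The probe set with the highest mean represented each of 1388 genes with several, which left 18818 genes. Symbols were updated through the RefSeq table of GRCm38.p6 (21185 by Entrez identifier, 3 by accession, 30 kept).

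limma 3.58.1 in R 4.3.3 was fitted with 1 mean per group (9 residual degrees of freedom), eBayes with intensity trend, two-sided contrasts and Benjamini-Hochberg adjustment over all genes. The model was tested on simulated data.

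Named genes had the largest differences with the wild type αGalCer arrays apart, the largest differences without a wild type call, the largest shared or CD1d-/- changes with groups apart, up to 4 called members per list, a list's exceptions, or a place among 30 fixed genes. RIKEN, Gm, LOC and other predicted genes were skipped. The 42 lists (813 of 898 entries measured) share members. The members and lists were chosen with earlier results of these data known. Replicate numbers were not used as pairs in the main fit. Alternatives covered variance model, scaling, dim genes, probe sets, weights, covariates and omitted arrays.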

Additional observations from a re-analysis of the deposited data

Results flagged for a closer look

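The change after αGalCer differed between wild type and CD1d-/- for 5309 genes by the test of the difference itself.

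Of 164 named genes, 8 (4.88%) had 1 wild type αGalCer array apart from the other 3, where chance alone flags about 5% of such groups, and the causes were not tested. Rnase2a read 11.98 on that array against 12.37 to 12.43, Lyve1 10.75 against 11.40 to 11.51, and Mrc1, the mannose receptor of M2 macrophages, 11.09 against 11.51 to 11.57. Pck1 read 9.54 against 8.06 to 8.26, Saa3 11.77 against 10.86 to 10.98 and Slamf6 9.14 against 8.75 to 8.79. Alox15 read 7.91 against 6.94 to 7.07 and Rrm2 9.33 against 9.13 to 9.15.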

How the results depend on the processing

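Of 159 named genes called for the difference or the average, 110 were called the same way under every alternative run on them, 26 for most and 25 for 4 of the 159 that are dim in every group, and 49 lost the call under at least 1. Scaling to ribosomal protein genes shifted the arrays by -0.32 to 0.43 and gave 12577 calls for the difference (1065 positive, 11512 negative), 14504 in wild type (1703 up, 12801 down), 1568 rises and 6065 falls of the average, 36 between vehicle groups, 12105 CD1d-dependent genes, 472 without a wild type call, 679 shared genes with an interval within 2-fold and 6774 genes with such an interval. It turned Akt1 to -0.01, Cox5a to -0.02, Stat6 to -0.48 and Ucp1 to -0.30. Array weights gave 322 calls in CD1d-/-, 169 between vehicle groups, 464 without a wild type call and 2073 bounded shared genes. Testing every probe set gave 6129 wild type rises, 214 without a wild type call and 23827 intervals within 2-fold, from more features. Genes with a group mean of at least 6 held 6399 such intervals, from fewer genes. The ductal covariate gave 3769 average calls (1769 falls), 43 between vehicle groups, 404 without a wild type call, 310 shared and 268 bounded shared genes, and an average of -0.09 for Tnfrsf11b. The muscle covariate gave 4 between vehicle groups. Without the 2 arrays highest in muscle genes 64 genes lacked a wild type call. Without the 3 arrays highest in ductal epithelium genes, 1 gene was called in CD1d-/-, 4 between vehicle groups, and 831 shared genes were bounded. Also requiring 1.5-fold gave 5019 wild type calls (2356 up, 2663 down), 2566 average calls (1287 up, 1279 down), 414 without a wild type call, 589 shared and 75 bounded. An interval within 1.5-fold held 492 shared genes and 7693 genes in all. The causes were not tested.

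Leaving out 1 array at a time gave 4531 to 5597 calls for the difference, 0 to 2 in CD1d-/- (2 without CD1d-/- vehicle replicate 3), 11 to 35 between vehicle groups and 52 to 200 without a wild type call.

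After group means were removed, same-numbered samples correlated at -0.20 to 0.48 over 18 pairs (median 0.02). Other pairs correlated at -0.57 to 0.46 over 45 pairs (median 0.02). These values do not decide whether the replicate numbers pair samples. With the replicate number as a block 5461 genes were called for the difference, 5014 of them also called without it.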
